A study of Homo sapiens with 6 samples.

Results

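The genes described here are 44 genes that carry a cell into mitosis and out of it again, taken by symbol from the 60612 genes listed for MDA-MB-231 cells with and without hairpin RNA against YAP1. They cover CDK1 with its cyclins and its phosphatases, the mitotic kinases, the spindle checkpoint, the anaphase machinery, spindle motors and cytokinesis genes. A gene was to be kept if its mean over the 6 libraries was at least 0.5 FPKM (fragments counted per kilobase and per library size, so that levels of long and short genes can be compared). All 44 passed this minimum, with means between 4.45 and 246 FPKM, so that none was lost and none entered because of a high level in 1 group alone. Of all the genes listed, 14770 passed.

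MDA-MB-231 is an established human line of triple-negative breast cancer. Its cells stably carried either control hairpin RNA (Sh-NC, genotype label WT) or hairpin RNA against YAP1 (Sh-YAP1, genotype label of a YAP1 knockdown), with no further treatment named. Total RNA was collected on day 3, with 3 libraries in each group. How many hairpins a group rests on is not given, so an effect of a hairpin itself and an effect of YAP1 loss cannot be told apart. The labels do not say whether the libraries of a group came from separate cultures, and the p-values therefore measure the spread between these libraries, which may be technical.

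Entry into mitosis is driven by CDK1 bound to cyclin B, held back by WEE1 and released by the CDC25 phosphatases, with PLK1 and the Aurora kinases acting alongside. Chromosomes are aligned under the spindle assembly checkpoint, and once it is satisfied CDC20 activates the anaphase-promoting complex (APC/C), which has cyclin B and securin destroyed so that sister chromatids separate and the cell divides. Most of these genes are transcribed late in the cell cycle under FOXM1, MYBL2 (B-MYB) and the MuvB complex, so their transcripts also serve as a reading of how many cells are dividing.

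The targeted gene was read first. YAP1, the transcriptional co-activator at the end of the Hippo pathway, was at 28.1, 26.2 and 22.9 FPKM in the Sh-NC libraries against 3.35, 2.67 and 2.58 FPKM in the Sh-YAP1 libraries, each in the order of replicates 1 to 3 that all values below follow. Its mean fell by 88.9%, in the direction of the labels. The summed FPKM of a library ranged from 467493 to 475116, and the depth of sequencing is unknown because no counts were used. The 6 markers chosen for this line (VIM, CD44, KRT8, KRT18, AXL and CAV1) all had means above 100 FPKM. All 6 had negative log2 fold changes, with a median of -0.21, and AXL, a receptor tyrosine kinase, was called lower (log2 fold change -0.35, adjusted p = 0.0390, limma), so that values below the control were not confined to the members. Of 6 genes listed as low or absent in this line, the oestrogen receptor gene ESR1, the progesterone receptor gene PGR and the E-cadherin gene CDH1 stayed at or below 0.07, 0.01 and 0.49 FPKM in every library. The other 3 were present at a low level, GATA3 at 4.64 to 7.34 FPKM, EPCAM at 2.43 to 3.27 FPKM and FOXA1 at a mean of 0.692 FPKM. Of 8 markers of immune, endothelial and fibroblast cells, 5 had means under 0.5 FPKM and none of the other 3 (PECAM1, COL1A1 and COL1A2) had an adjusted p under 0.05.

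To show what the members share in their regulatory sequence, promoters were read from RefSeq (GRCh38.p14), where 37 of the 44 members had 49 start sites. AURKA, BUB3, TTK, UBE2C, FOXM1, TPX2 and WEE1 had no entry. The letters TTTGAA, the core of the CHR element that MuvB recognises, stood within 250 bases before the start, on either strand, in 21 of the 37 genes and in 46.9% of their windows, against 9.02% of the 14864 windows of all tested genes. The letters CCAAT, the core of the box bound by NF-Y, stood in 31 of the 37 genes and in 73.5% of the windows, against 33.1%. The letters GGAATG, the core recognised by the TEAD partners of YAP1, stood in 3 of the 49 windows (6.12%), against 9.79% of all tested windows. Matches could overlap, as TTTGAA and CCAAT do in the MKI67 stretch, and a match describes letters only. The stretches below belong to the 4 genes whose fall passed the test and to 5 members that serve as contrasts in what follows. They read 5′ to 3′ on the strand of the gene, and capitals mark TTTGAA or CCAAT or their reverse complements. They are shortened to 30 bases where the window runs into a known transcript. CDK1 and AURKB each had another start that is not printed, and the 120 bases before that of CDK1 held neither TTTGAA nor CCAAT.
CDC20 (chr1:43358861-43358980, plus strand): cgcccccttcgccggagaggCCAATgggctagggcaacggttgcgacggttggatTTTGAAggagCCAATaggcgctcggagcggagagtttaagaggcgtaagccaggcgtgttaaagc
PLK1 (chr16:23678848-23678877, plus strand): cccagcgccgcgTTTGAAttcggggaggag
CCNB1 (chr5:69167083-69167112, plus strand): gccacgaacaggCCAATaaggagggagcag
AURKB (chr17:8210250-8210369, minus strand): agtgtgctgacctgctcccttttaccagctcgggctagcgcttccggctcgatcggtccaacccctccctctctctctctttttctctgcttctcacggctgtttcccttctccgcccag
CDK1 (chr10:60778448-60778477, plus strand): ccctttagcgcggtgagTTTGAAactgctc
CKS1B (chr1:154974561-154974680, plus strand): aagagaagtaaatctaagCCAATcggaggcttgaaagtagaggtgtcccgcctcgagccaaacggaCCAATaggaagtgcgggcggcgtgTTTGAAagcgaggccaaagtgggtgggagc
MKI67 (chr10:128126424-128126543, minus strand): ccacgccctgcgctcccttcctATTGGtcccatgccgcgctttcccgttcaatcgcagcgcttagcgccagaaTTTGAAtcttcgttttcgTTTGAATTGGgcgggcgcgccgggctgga
KIF11 (chr10:92593010-92593129, plus strand): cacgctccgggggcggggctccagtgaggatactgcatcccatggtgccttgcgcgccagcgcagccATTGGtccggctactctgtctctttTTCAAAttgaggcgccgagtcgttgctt
KIF23 (chr15:69414282-69414311, plus strand): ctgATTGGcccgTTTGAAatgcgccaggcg

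Fold changes were then set beside these letters. The 21 members with TTTGAA had a median log2 fold change of -0.08 with 2 genes called, and the 16 without it had a median of -0.14 with 2 called. For CCAAT the order was the other way: the 31 members with it had a median of -0.13 with all 4 called, and the 6 without it had a median of 0.04 with 0 called. For GGAATG, the 3 members with it had a median of -0.21 with 0 called, and the 34 without it had a median of -0.08 with 4 called. CDC20 and PLK1, which fell, and CDK1, MKI67 and KIF11, which did not pass the test, all carried TTTGAA. AURKB and CCNB1, which also fell, had no TTTGAA in their windows. The CCAAT of AURKB nearest to the start lay 124 bases before it, outside the printed stretch.

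Across the members, a small part of the set was downregulated after YAP1 knockdown and most of it could not be told from the control. With p-values from limma adjusted over all 14770 genes (Benjamini-Hochberg) and a threshold of 0.05, 4 of 44 members (9.09%) fell, namely CDC20, AURKB, PLK1 and CCNB1, and 0 rose. Over all genes tested 3.38% passed, 1.62% in the lower and 1.75% in the higher direction. Among the 8963 genes in the members' range of mean FPKM, 2.23% passed in the lower direction. The Sh-YAP1 libraries lay below every Sh-NC library for 17 members (14.7% of all genes) and above every one for 3 members (14.6% of all genes), and the groups overlapped for 24. Among genes in the members' range of mean FPKM the share with lower, separate groups was 17.6%. At an unadjusted p under 0.05 the counts were 15 lower, against 11.1% of all genes, and 2 higher, against 10.8%. Negative log2 fold changes were found for 30 members, against 50.2% of all genes. The median log2 fold change of the members was -0.11, on the scale of log2(FPKM + 1) that all fold changes here use, with a range from -0.55 to 0.23, while that of all genes was -0.0014. Without Sh-YAP1 replicate 3 the median of the members was -0.07. In bulk RNA, fewer cells in mitosis and less RNA per mitotic cell cannot be told apart.

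The members' FPKM added up to 2869, 2915 and 2954 in the Sh-NC libraries and to 2497, 2613 and 2491 in the Sh-YAP1 libraries. As a share of all FPKM this was between 0.614% and 0.623% in Sh-NC and between 0.526% and 0.555% in Sh-YAP1, so that the groups did not overlap. The highly expressed members weigh most in such a sum. The calls themselves rest on all 6 libraries together: with any single library left out, whichever it was, 0 of the 4 members kept an adjusted p under 0.05 (limma, Benjamini-Hochberg), and the number of genes called among all genes tested went from 499 to between 80 and 170. The smallest adjusted p of a member was then 0.0503, for CDC20 without Sh-NC replicate 3. The directions did not change: without a library the log2 fold change ranged from -0.60 to -0.49 for CDC20, from -0.45 to -0.39 for AURKB, from -0.51 to -0.41 for PLK1 and from -0.47 to -0.37 for CCNB1.

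**Figure D1:**
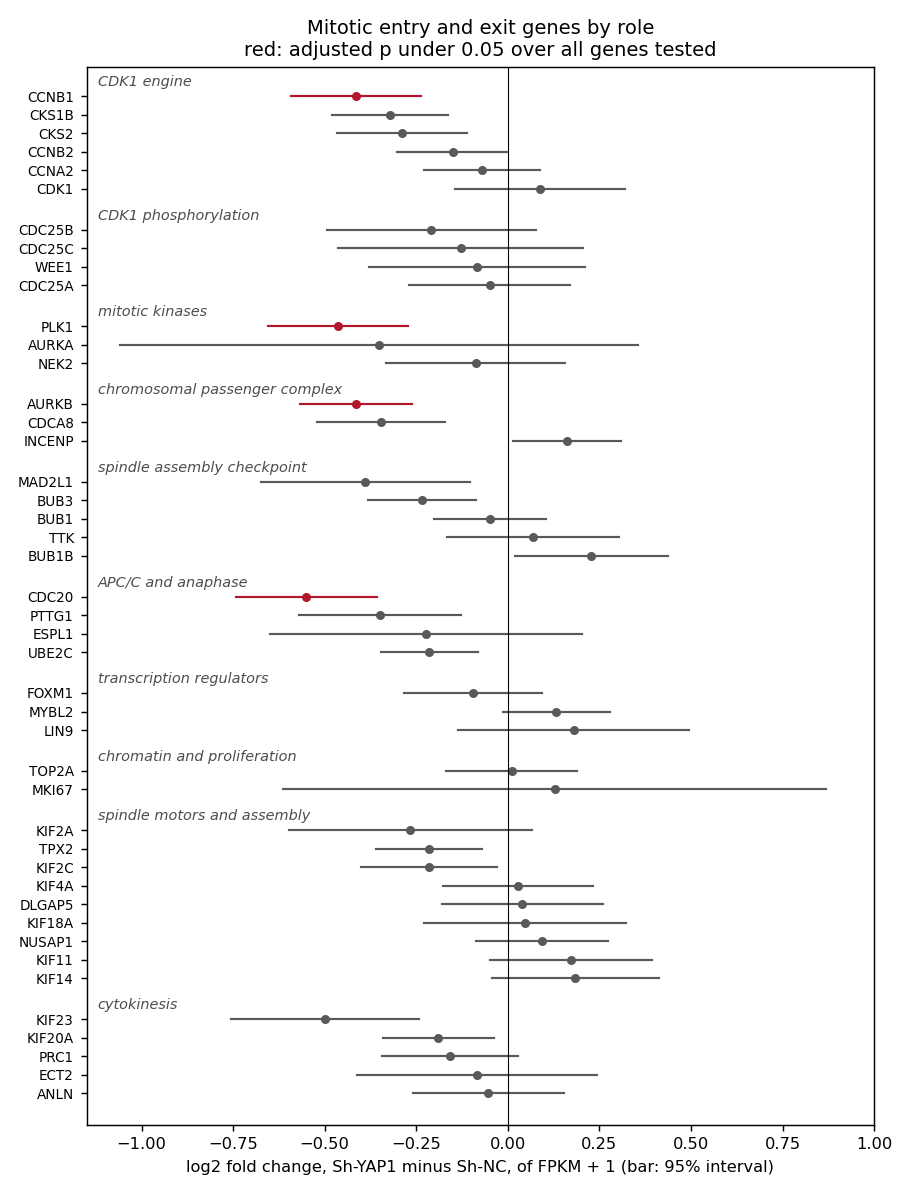
Log2 fold change (Sh-YAP1 minus Sh-NC, x axis) of each of the 44 members, ordered by role, with its 95% interval from limma over 3 libraries per group. The 4 genes in red (CCNB1, PLK1, AURKB and CDC20) have an adjusted p under 0.05, and the widest intervals are those of AURKA and MKI67.

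Within the CDK1 engine, cyclin B1 fell, while the kinase itself did not pass the test. CCNB1, the cyclin that activates CDK1 for mitotic entry, was at 118, 121.5 and 122 FPKM in Sh-NC and at 84.8, 98.1 and 88.5 FPKM in Sh-YAP1. The groups were clearly apart, with the lowest Sh-NC library well above the highest Sh-YAP1 library. Its mean was 121 ± 2.13 FPKM in Sh-NC and fell to 90.4 ± 6.86 FPKM in Sh-YAP1 (SD, n = 3), with a log2 fold change of -0.41 and a standard error of 0.07 (adjusted p = 0.0385, limma). This call was lost without the mean-variance trend (adjusted p = 0.0619, limma) and without the filter on low values (adjusted p = 0.0727). CDK1 itself, the kinase, was at 42.2, 38.8 and 47.4 FPKM in Sh-NC and at 43.4, 49.1 and 43.9 FPKM in Sh-YAP1. These values overlapped, and the 95% interval of the log2 fold change ran from -0.14 to 0.32.

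CKS1B and CKS2 encode the small subunits that help CDK1 complexes dock on phosphorylated substrates. CKS1B, the most abundant gene of this role, was at 193, 206 and 199 FPKM in Sh-NC and at 153, 168 and 158 FPKM in Sh-YAP1 (log2 fold change -0.32, adjusted p = 0.0556 from limma). CKS2 went from a mean of 163 to 133 FPKM (log2 fold change -0.29, adjusted p = 0.0909). Neither passed the threshold, although both had groups that did not overlap. Pseudogenes of CKS1B were listed as well, CKS1BP3 at 23.5 and 22.8 FPKM and CKS1BP2 at 7.19 and 2.69 FPKM in Sh-NC and Sh-YAP1, so reads may have been divided between these copies and CKS1B.

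The other mitotic cyclins had smaller differences. CCNB2, the second B-type cyclin, had group means of 77.4 and 69.7 FPKM without overlap (log2 fold change -0.15, adjusted p = 0.231, limma). CCNA2, the cyclin of S phase and early mitosis, was at 48.8, 50.4 and 53.3 FPKM in Sh-NC and at 48.2, 49.9 and 47.1 FPKM in Sh-YAP1. Its groups overlapped, with an interval of the log2 fold change from -0.23 to 0.09. Read within each library, the amount of CCNB1 per CDK1 was 2.80, 3.13 and 2.58 in Sh-NC and 1.96, 2.00 and 2.02 in Sh-YAP1, where no library scaling enters. This ratio, like the others below, was chosen after the values were seen, and it describes unequal change of its genes without a test.

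The genes that set the inhibitory phosphorylation of CDK1 were not called in either direction. Among the members they are the phosphatases CDC25A, CDC25B and CDC25C, which remove it, and the kinase WEE1, which adds it. All 4 had overlapping groups and log2 fold changes between -0.21 and -0.05. With a library left out these values ranged from -0.33 (CDC25B) to 0.0015 (CDC25A). CDC25B, the most abundant, was at 56.5, 50.2 and 58.0 FPKM in Sh-NC and at 55.9, 44.4 and 42.6 FPKM in Sh-YAP1, with an adjusted p of 0.358 (limma) and an interval from -0.49 to 0.08. WEE1 was low in every library, between 5.55 and 7.30 FPKM. PKMYT1, a kinase that also adds this phosphorylation but is not a member, was lower in every Sh-YAP1 library, with means of 15.1 and 12.5 FPKM. It did not pass the threshold either (log2 fold change -0.24, adjusted p = 0.263, limma).

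Of the mitotic kinases PLK1, AURKA and NEK2, grouped apart from AURKB, PLK1 fell and the other two did not pass the test. PLK1, which promotes CDK1 activation, centrosome maturation and cytokinesis, was at 73.7, 72.0 and 66.3 FPKM in Sh-NC and at 53.3, 47.0 and 52.7 FPKM in Sh-YAP1. Every Sh-YAP1 library was below every Sh-NC library. The means were 70.7 ± 3.86 and 51.0 ± 3.44 FPKM (SD, n = 3), with a log2 fold change of -0.46, a standard error of 0.08 and an adjusted p of 0.0350 (limma). The call of PLK1 was lost with quantile normalization (adjusted p = 0.0518, limma), without the mean-variance trend (0.0526) and without the filter on low values (0.0651).

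AURKA, the Aurora kinase of the spindle poles, varied widely between libraries of the same group. It was at 112, 111 and 62.2 FPKM in Sh-NC and at 50.9, 90.2 and 80.2 FPKM in Sh-YAP1. Sh-NC replicate 3 was far below the other Sh-NC libraries, inside the Sh-YAP1 range. The interval of its log2 fold change, from -1.06 to 0.35, spans the values of PLK1 and AURKB as well as 0. NEK2, a centrosomal kinase, had overlapping groups with means of 18.7 and 17.6 FPKM.

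The chromosomal passenger complex, which corrects wrong attachments of chromosomes to the spindle, was represented among the members by its kinase AURKB, its scaffold INCENP and its subunit CDCA8 (borealin). AURKB was at 111, 109 and 103 FPKM in Sh-NC and at 77.8, 80.8 and 82.6 FPKM in Sh-YAP1. The groups were apart by more than the whole range within either of them. Mean AURKB fell by 25.2%, from 108 ± 4.27 FPKM to 80.4 ± 2.43 FPKM (SD, n = 3), and the log2 fold change was -0.42 with a standard error of 0.06 (adjusted p = 0.0268, limma).

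The partners of AURKB did not share a direction. CDCA8 was at 50.4, 49.2 and 49.0 FPKM in Sh-NC and at 36.6, 41.8 and 38.0 FPKM in Sh-YAP1, without overlap (log2 fold change -0.35, adjusted p = 0.0581, limma). INCENP was at 26.8, 25.9 and 26.5 FPKM in Sh-NC and at 30.4, 29.5 and 29.1 FPKM in Sh-YAP1, also without overlap but with the higher values in Sh-YAP1 (log2 fold change 0.16, adjusted p = 0.196). BIRC5 (survivin), a further subunit that is not a member, had overlapping groups (log2 fold change 0.27, adjusted p = 0.643, limma). It was at 17.9, 23.1 and 15.5 FPKM in Sh-NC and at 36.1, 18.0 and 17.6 FPKM in Sh-YAP1. Within the libraries, the amount of AURKB per INCENP was 4.07 ± 0.18 in Sh-NC and 2.71 ± 0.14 in Sh-YAP1 (SD, n = 3 each), and that of CDCA8 per INCENP was 1.88 ± 0.03 and 1.31 ± 0.11. In each Sh-YAP1 library INCENP thus lay above, and AURKB and CDCA8 below, all of the Sh-NC libraries.

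**Figure D2:**
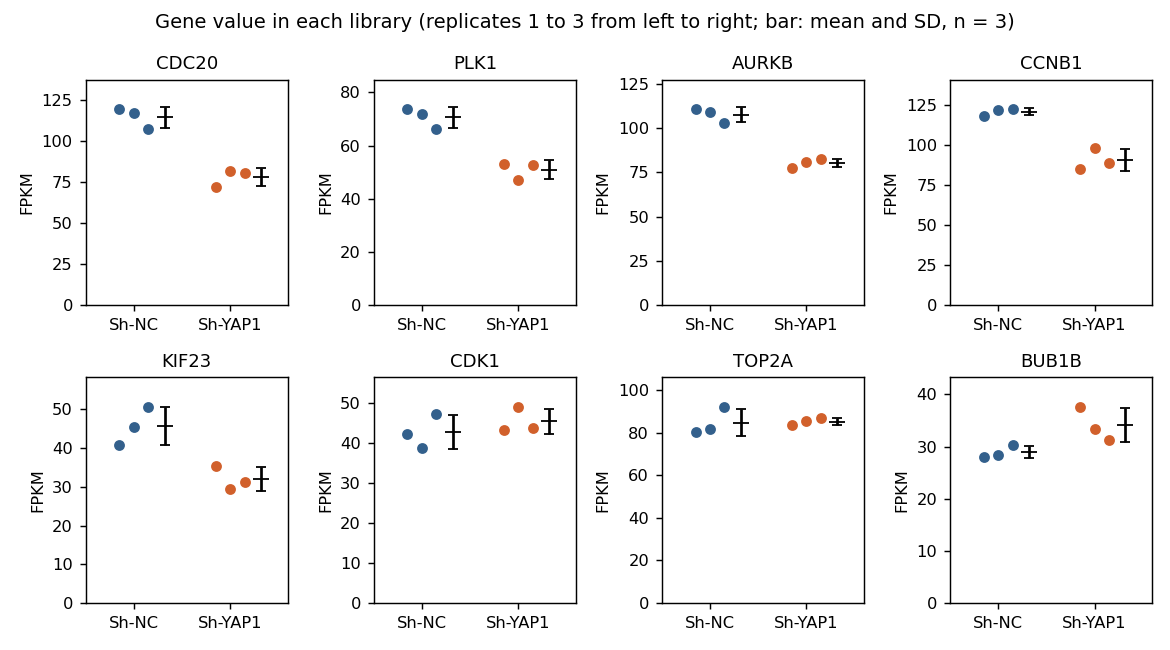
FPKM of 8 members in each library (y axes from 0), with Sh-NC in blue and Sh-YAP1 in orange and the mean and SD of the 3 libraries beside them. CDC20, PLK1, AURKB, CCNB1 and KIF23 lie lower in all Sh-YAP1 libraries, CDK1 and TOP2A overlap, and BUB1B lies higher, at 31.2 to 37.6 against 28.1 to 30.2 FPKM.

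The spindle assembly checkpoint, which holds anaphase until every chromosome is attached, held members on both sides of the control and 0 of 5 were called. BUB1, the kinase that recruits the checkpoint to kinetochores, was at 40.3, 41.6 and 42.2 FPKM in Sh-NC and at 38.96, 41.6 and 39.2 FPKM in Sh-YAP1. Its groups overlapped, and the interval of its log2 fold change, from -0.20 to 0.10, did not reach the value of any of the 4 called genes. BUB1B (BUBR1), which binds and blocks CDC20, had the highest log2 fold change of all members at 0.23 (interval 0.02 to 0.44, adjusted p = 0.196, limma). Its values were 28.1, 28.4 and 30.2 FPKM in Sh-NC and 37.6, 33.5 and 31.2 FPKM in Sh-YAP1.

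BUB3 and MAD2L1, the remaining components of the complex that inhibits CDC20, had lower values in every Sh-YAP1 library. BUB3, the most abundant checkpoint member, was at 164.5, 166 and 164 FPKM in Sh-NC and at 134, 139.6 and 147 FPKM in Sh-YAP1 (log2 fold change -0.23, adjusted p = 0.0957, limma). Under the alternatives listed at the end the log2 fold change of BUB3 ranged from -0.32 to -0.16. MAD2L1 was at 14.7, 11.03 and 12.6 FPKM in Sh-NC and at 8.62, 9.81 and 9.99 FPKM in Sh-YAP1 (log2 fold change -0.39, adjusted p = 0.128). TTK (MPS1), the kinase that starts checkpoint signalling, overlapped between the groups, with means of 16.4 and 17.2 FPKM.

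The genes of anaphase contained the largest fall of the whole set. CDC20, the activator of the APC/C and the target of the checkpoint, was at 119, 117 and 107 FPKM in Sh-NC and at 71.8, 81.5 and 80.6 FPKM in Sh-YAP1. The lowest Sh-NC value stood well clear of the highest Sh-YAP1 value. From a mean of 114.5 ± 6.47 FPKM it fell by 31.9% to 78.0 ± 5.37 FPKM (SD, n = 3), and the log2 fold change was -0.55 with a standard error of 0.08 (adjusted p = 0.0245, limma). A pseudogene, CDC20P1, was listed at 1.41 and 0.88 FPKM in the groups, a small amount beside the gene itself.

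All the other members of this role had negative log2 fold changes as well, without passing the threshold. UBE2C, the ubiquitin-conjugating enzyme that serves the APC/C, had the highest level of the 44 members, at 266, 269 and 260.2 FPKM in Sh-NC and at 227, 229.8 and 227.5 FPKM in Sh-YAP1 (log2 fold change -0.21, adjusted p = 0.0901, limma). With quantile normalization the log2 fold change of UBE2C was -0.10 (adjusted p = 0.303, limma). PTTG1 (securin), the inhibitor of separase, was at 148, 156 and 181.5 FPKM in Sh-NC and at 134, 123 and 123 FPKM in Sh-YAP1 (log2 fold change -0.35, adjusted p = 0.0980). Both were without overlap between the groups, whereas ESPL1 (separase) overlapped, with means of 14.1 and 11.9 FPKM.

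CDC20 and its inhibitors can be set side by side within a library. The amount of CDC20 per BUB1B was 4.25, 4.12 and 3.54 in Sh-NC and 1.91, 2.43 and 2.58 in Sh-YAP1. The amount of CDC20 per MAD2L1 was 8.10, 10.6 and 8.52 in Sh-NC and 8.33, 8.31 and 8.06 in Sh-YAP1. The CDC20 to BUB1B ratio was therefore lower in every Sh-YAP1 library, while the CDC20 to MAD2L1 ratio overlapped between the groups.

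None of the transcription regulators of these genes was called. FOXM1, the forkhead factor that drives late cell cycle genes, was at 58.2, 55.0 and 53.8 FPKM in Sh-NC and at 51.3, 56.4 and 48.7 FPKM in Sh-YAP1. The groups overlapped (log2 fold change -0.09, interval -0.28 to 0.09, adjusted p = 0.528, limma), and the log2 fold change of FOXM1 was -0.15 without Sh-YAP1 replicate 2 and -0.05 without Sh-YAP1 replicate 3. MYBL2 was at 45.5, 43.95 and 43.0 FPKM in Sh-NC and at 47.9, 49.3 and 48.2 FPKM in Sh-YAP1, higher in every Sh-YAP1 library (log2 fold change 0.13, interval -0.01 to 0.28, adjusted p = 0.267). LIN9, a MuvB subunit, was the least expressed member, with overlapping values between 3.36 and 5.22 FPKM. Its log2 fold change of 0.18 was 0.07 without Sh-NC replicate 2.

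The common proliferation markers did not separate the groups. TOP2A, the topoisomerase that untangles sister chromatids, was at 80.4, 81.6 and 92.2 FPKM in Sh-NC and at 83.4, 85.4 and 86.7 FPKM in Sh-YAP1. The groups overlapped, with a log2 fold change of 0.01 and an interval from -0.17 to 0.19, and the sign turned to -0.01 when each library was centred on its median. MKI67, which codes for the antigen Ki-67 of dividing cells, was at 31.6, 50.5 and 56.7 FPKM in Sh-NC and at 62.8, 58.5 and 32.3 FPKM in Sh-YAP1. In each group a single library was far below the others, and the interval from -0.61 to 0.87 is too wide to set MKI67 beside or apart from any other member. The amount of PLK1 per TOP2A was 0.84 ± 0.11 in Sh-NC and 0.60 ± 0.04 in Sh-YAP1 (SD, n = 3 each), without overlap.

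Spindle motors and assembly factors formed the largest role, with 9 members, 0 called, and a median log2 fold change of 0.04. TPX2, which activates AURKA on spindle microtubules, was at 136, 132 and 139.6 FPKM in Sh-NC and at 114, 120.4 and 116.5 FPKM in Sh-YAP1. It had the smallest p of the role (log2 fold change -0.22, adjusted p = 0.106, limma). KIF2C, the kinesin that takes microtubules apart at centromeres, went from a mean of 53.4 to 45.9 FPKM, and both genes were without overlap between the groups.

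The other 7 members of this role overlapped between the groups. KIF11 (Eg5), the motor that pushes spindle poles apart, was at 24.0, 24.0 and 29.2 FPKM in Sh-NC and at 28.97, 29.05 and 28.96 FPKM in Sh-YAP1. The Sh-YAP1 libraries were nearly identical, and Sh-NC replicate 3 reached their level. KIF14, a kinesin of the late spindle, was at 5.82, 5.22 and 5.17 FPKM in Sh-NC and at 6.85, 6.28 and 5.71 FPKM in Sh-YAP1, with a log2 fold change of 0.18 that was 0.10 with a trend over length and GC content taken off. The values for KIF4A, KIF18A, NUSAP1 and DLGAP5, which bind chromosomes or spindle microtubules, lay between 0.03 and 0.09 on the log2 scale. KIF2A, another microtubule depolymerase, had a log2 fold change of -0.27 (interval -0.60 to 0.07), which was -0.40 without Sh-NC replicate 1 and -0.14 without Sh-NC replicate 2.

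The cytokinesis genes all had negative log2 fold changes, and 0 of 5 were called. KIF23 (MKLP1), the motor of the central spindle, had the second lowest log2 fold change of the set, with 40.9, 45.4 and 50.7 FPKM in Sh-NC against 35.4, 29.5 and 31.1 FPKM in Sh-YAP1. The groups did not overlap, yet the spread within them was large (log2 fold change -0.50, standard error 0.11, adjusted p = 0.0624, limma). KIF20A and PRC1, which act on the same central spindle, were also without overlap, with means of 68.4 and 59.9 FPKM and of 109.6 and 98.3 FPKM. KIF20A shares exon sequence with BRD8 and CDC23 on the opposite strand, at group means of 42.5 and 45.5 FPKM and of 22.3 and 24.0 FPKM, and since the strand of the libraries is not given, reads of these genes may be mixed. The same limit holds, among others, for CCNA2 with EXOSC9 (means of 25.1 and 21.8 FPKM in Sh-NC and Sh-YAP1). It also holds for CDC25C with FAM53C (25.1 and 24.95 FPKM) and KIF4A with PDZD11 (37.6 and 34.9 FPKM). ANLN (anillin) and ECT2, which position and contract the cleavage furrow, overlapped, with log2 fold changes of -0.05 and -0.08.

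Gene totals can hide movement between the transcripts of a gene. The 44 members had 340 transcript rows, of which 263 reached a mean of 0.1 FPKM and were tested. With the p of limma adjusted over 77655 rows, 0 were called, where 0.0515% of all rows were, and at an unadjusted p under 0.05 there were 25 lower rows, against 3.26% of all rows, and 3 higher rows, against 2.87%. The files name the gene but not the transcript of a row, so rows are numbered here by their mean level.

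For CDC20, CCNB1 and PLK1 the highest row was separate between the groups, like the total. The highest row of CDC20, with 72.0% of the gene, was at 85.2, 83.3 and 74.5 FPKM in Sh-NC and at 56.3, 55.1 and 61.4 FPKM in Sh-YAP1. That of CCNB1, with 83.8%, was at 99.7, 99.9 and 96.0 FPKM against 73.5, 80.3 and 81.5 FPKM. That of PLK1, with 86.4%, was at 60.7, 67.0 and 58.7 FPKM against 47.3, 31.7 and 50.2 FPKM. None of these rows overlapped between the groups. AURKB was divided over 13 tested rows, which held between 23.8% and 0.234% of the gene, and its highest row overlapped between the groups although its total did not.

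In several other members the level jumped from row to row between libraries of the same group, and these genes were picked after their values were seen. The first row of FOXM1 was at 39.4, 38.3 and 37.3 FPKM in Sh-NC and at 36.7 FPKM in Sh-YAP1 replicate 1, and was listed at 0 in Sh-YAP1 replicates 2 and 3. Its second row was at 3.17, 2.61, 3.14 and 2.24 FPKM in those first 4 libraries and at 40.5 and 30.6 FPKM in the other 2. The totals of the gene, given above, overlapped between the groups. In all, 12 rows of 9 members were listed at 0 in some libraries and above 5 FPKM in others.

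MKI67 showed the same exchange in 1 library of each group, and there the total moved with it. Its first row was at 46.6, 54.1, 58.7 and 55.4 FPKM in 4 libraries and at 6.80 FPKM in Sh-NC replicate 1 and 5.78 FPKM in Sh-YAP1 replicate 3. In those same libraries its second row was at 24.2 and 24.1 FPKM, against values between 0.80 and 1.25 FPKM elsewhere. These are the libraries with the low MKI67 totals given above, and whether the assignment of reads to rows sets those totals was not tested. PTTG1 and KIF23 had similar exchanges. The first row of PTTG1 was at 14.0 FPKM in Sh-NC replicate 1 and 9.10 FPKM in Sh-YAP1 replicate 2 but between 90.6 and 132 FPKM in the other 4 libraries, and the first row of KIF23 was at 26.8, 2.35 and 2.67 FPKM in Sh-NC and at 3.63, 21.2 and 24.4 FPKM in Sh-YAP1. The libraries with a high first row of KIF23 also had the lowest KIF23 totals of their group. These were 40.9 FPKM in Sh-NC replicate 1 and 29.5 and 31.1 FPKM in Sh-YAP1 replicates 2 and 3. Whether this exchange enters the log2 fold change of KIF23 was not tested.

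**Figure D3:**
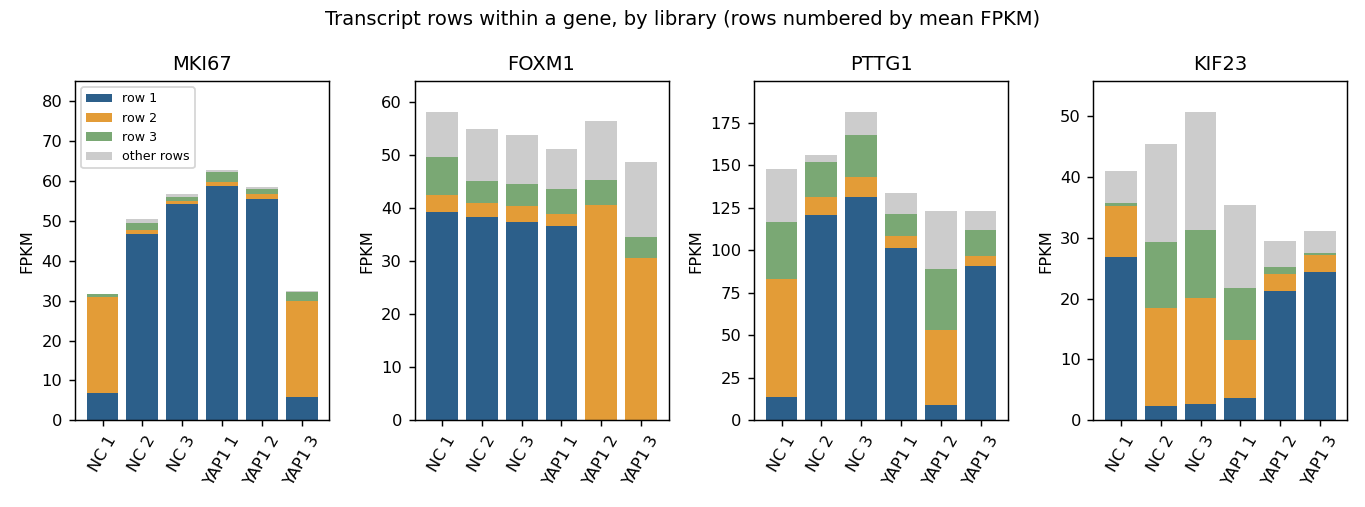
FPKM of the transcript rows of MKI67, FOXM1, PTTG1 and KIF23 stacked in each library (NC for Sh-NC, YAP1 for Sh-YAP1, replicates 1 to 3). The rows are numbered by mean FPKM, and row 2 exceeds row 1 in 1 library of each group for MKI67 and PTTG1, in Sh-YAP1 replicates 2 and 3 for FOXM1, and in Sh-NC replicates 2 and 3 and Sh-YAP1 replicate 1 for KIF23.

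KIF2A, also picked after its values were seen, had rows on opposite sides of the control. Its first row was at 6.48, 13.3 and 11.3 FPKM in Sh-NC and at 3.89, 3.10 and 5.0 FPKM in Sh-YAP1, while its second row was listed at 0 in all Sh-NC libraries and at 2.59, 5.31 and 4.94 FPKM in Sh-YAP1. The second row had the smallest adjusted p of all member rows, 0.0978 (limma), which missed the threshold with the pseudocount of 1 and passed it with smaller pseudocounts. KIF2A shares exon sequence on the same strand with IPO11, which had means of 13.5 and 15.5 FPKM, so reads in the shared part cannot be told apart.

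The fold changes were also related to transcript length and to level. Among the members, log2 of the longest GENCODE 29 transcript and the log2 fold change had a Pearson correlation of 0.39 across 44 genes, against 0.10 across 14682 of the tested genes, and mean level and log2 fold change had a Spearman correlation of -0.46, against -0.09. The 79 other mitotic genes described below shared both relations, at 0.32 and -0.27. All these genes come from the same 6 libraries and are not independent replicates, and the values are descriptions. The 22 members with a transcript of at most 3568 bases had a median log2 fold change of -0.20 with 3 called, and the 22 longer members had a median of -0.05 with 1 called. All genes of the same length classes had medians of -0.03 and 0.04. When a smooth trend over length and GC content was taken off each library, a step chosen after the values were seen, the median of the members was -0.14, those of the shorter and longer members were -0.17 and -0.10, the 4 called genes remained called and KIF23 joined them (adjusted p = 0.0382, limma).

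**Figure D4:**
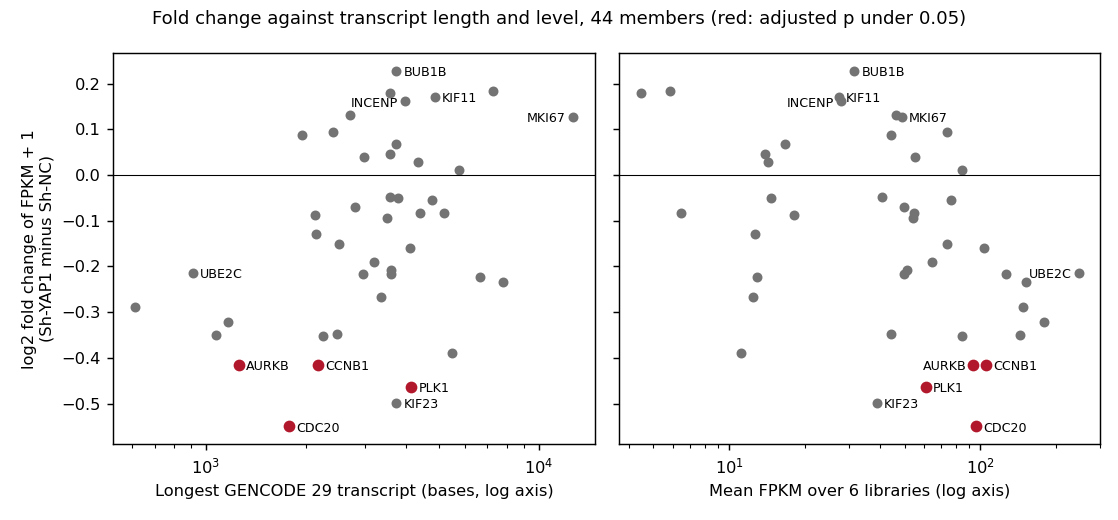
Log2 fold change of the 44 members (y axes) against the length of the longest transcript in bases (left, log axis) and against the mean FPKM over the 6 libraries (right, log axis). Members called at an adjusted p under 0.05 are in red, and the Pearson correlation with log2 length is 0.39 while the Spearman correlation with mean level is -0.46.

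The wider mitotic machinery was read from a list of 80 other mitotic genes, of which 79 were tested. Here 4 fell (5.06%, against 1.62% of all genes), 0 rose (against 1.75%), and the median log2 fold change was -0.004. For the members 9.09% were called and the median was -0.11. Without overlap, 14 of the 79 lay lower (17.7%, against 14.7% of all genes) and 12 higher (15.2%, against 14.6%). These calls too rest on all 6 libraries, since with a library left out 0 to 1 remained (UBE2S, without Sh-NC replicate 3), and 2 were called without the mean-variance trend (UBE2S and E2F5) and 1 without the filter (UBE2S). UBE2S, which elongates ubiquitin chains for the APC/C and so works directly after UBE2C, was at 106, 104 and 97.7 FPKM in Sh-NC and at 75.4, 71.8 and 73.6 FPKM in Sh-YAP1 (log2 fold change -0.47, adjusted p = 0.0211, limma). TRIP13, the ATPase that remodels MAD2, was at 21.3, 23.7 and 22.4 FPKM in Sh-NC and at 15.8, 15.4 and 17.5 FPKM in Sh-YAP1 (log2 fold change -0.44, adjusted p = 0.0424). Both were without overlap between the groups.

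E2F4 and E2F5, the repressor E2Fs that join MuvB in resting cells, were the remaining called genes of that list. E2F4 was at 47.2, 49.0 and 49.7 FPKM in Sh-NC and at 36.9, 38.4 and 38.7 FPKM in Sh-YAP1 (log2 fold change -0.35, adjusted p = 0.0389, limma), and this call was lost when the length and GC trend was taken off. E2F5 was at 5.25, 5.51 and 5.54 FPKM in Sh-NC and at 3.70, 3.35 and 3.30 FPKM in Sh-YAP1 (log2 fold change -0.53, adjusted p = 0.0274). Both genes are known as repressors rather than activators of cell cycle genes. The 10 MuvB, DREAM and MYB-FOXM1 partner genes that include them had a median log2 fold change of 0.18.

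The remaining genes of the machinery were not called. Among 20 APC/C subunits and regulators only UBE2S and TRIP13 were called, and the median was -0.07. None of the 15 tested genes of entry and the G2 checkpoint passed, and the 2 with the smallest p lay on opposite sides of the control. HMMR, a spindle-associated protein, had a log2 fold change of 0.36 (adjusted p = 0.0899, limma), and GTSE1, a microtubule-binding protein of G2, had -0.24 (adjusted p = 0.1197). Among 17 condensin, cohesin and sister chromatid genes 0 were called, 13 had positive log2 fold changes and 4 had negative ones. Over all genes 50.2% were negative. The cohesin subunits RAD21 at 0.33 (adjusted p = 0.142, limma) and SMC3 at 0.27 (adjusted p = 0.182) had the smallest p of that list. Of 17 spindle and cytokinesis genes none was called, with CDCA3 at -0.50 (adjusted p = 0.0858, limma) and the kinesin KIF18B at -0.30 (adjusted p = 0.105) having the smallest p.

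Genes of neighbouring cell cycle steps gave a setting for these values. Of 39 DNA replication and E2F target genes 0 were called, and the median log2 fold change was -0.06. Without overlap, 9 lay lower (23.1%, against 14.7% of all genes) and 2 higher (5.13%, against 14.6%). The smallest p there belonged to GINS1, a subunit of the replicative helicase, at -0.33 (adjusted p = 0.0912, limma) and to TK1, thymidine kinase, at -0.43 (adjusted p = 0.104). Of 35 centromere and kinetochore genes 1 was called (2.86%, against 3.38% of all genes), and the median of that list was 0.08. The called gene, MIS18A, a loading factor for the centromeric histone, fell by 1.12 on the log2 scale (adjusted p = 0.0073, limma). The difference between these lists and the members was not tested.

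**Figure D5:**
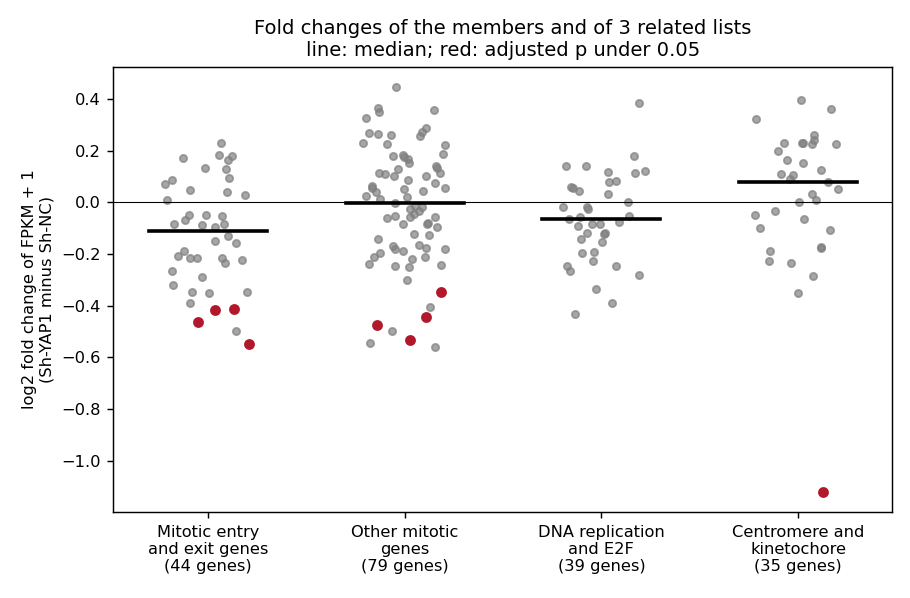
Log2 fold change (y axis) of each tested gene of the members and of 3 related lists, with the median as a line. Genes called at an adjusted p under 0.05 are in red, namely 4 of 44 members, 4 of 79 other mitotic genes, 0 of 39 replication genes and 1 of 35 centromere and kinetochore genes.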

How the data were processed

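RNA-sequencing of 6 MDA-MB-231 libraries (3 Sh-NC and 3 Sh-YAP1) was analysed. The authors deposited FPKM values with 2 decimals for 229420 transcript rows per library, with a gene identifier and no counts, so depth is unknown. The submitters' processing notes name hg19, Bowtie 0.12.2 and HISAT2 2.0, without roles, and the quantification tool, the annotation and the strand of the libraries are not given in the sources used here. Sums over all rows of a gene were transformed to log2(FPKM + 1). Genes averaging 0.5 FPKM or more, and rows averaging 0.1 FPKM or more, were compared between Sh-YAP1 and Sh-NC in R 4.3.3 by linear models in limma 3.58.1, with eBayes and its intensity trend, no covariate, and p-values adjusted by Benjamini-Hochberg over everything tested. Summaries and plots were made in Python 3.11.15 (pandas 2.3.3, numpy 2.4.6, scipy 1.17.1, matplotlib 3.10.9), and the code was tested on simulated data.

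Transcript lengths and overlaps came from GENCODE 29 and promoters from RefSeq, neither being the build of the files, so no gene position was taken from the files. Symbols came from a separate list of gene names. The members and the lists were chosen with earlier results of these data known. Named genes were YAP1, members with an adjusted p under 0.05, representatives of each role (CDK1, CCNA2, CCNB1, PLK1, AURKA, AURKB, BUB1, CDC20, FOXM1, MYBL2, TOP2A and MKI67), the 4 largest rises and 4 largest falls, and in other lists the called genes or those with the smallest p. The other members were added so that each role is complete, as were BIRC5 and PKMYT1 from the other mitotic genes. As alternatives, the test was repeated with each library left out, with a block for the replicate number, with pseudocounts of 0.1 and 0.01, after quantile normalization or median centring, without the trend, without the filter or with a minimum of 1 FPKM, and with gene sums that skip rows averaging below 0.1 FPKM. A correction for length and GC content, with splines of 4 degrees of freedom, was added after the data were seen.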

Additional observations from a re-analysis of the deposited data

How the results depend on the processing

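The median log2 fold change of the 44 members stayed between -0.14 and -0.07 under every alternative, and the fall of YAP1 stayed past the threshold in all 16. The number of called genes moved more. Without the mean-variance trend 2 members (AURKB and CDC20) and 2 other mitotic genes were called. Without the filter 232 genes, 2 members and 1 other mitotic gene were called. With quantile normalization 3 members were called, and with centring on the median 5, CKS1B joining at an adjusted p of 0.0478 (limma). Leaving out a library gave 80 to 170 genes, 0 members, and 0 to 1 other mitotic genes (UBE2S without Sh-NC replicate 3), with 13 to 16 members lower at an unadjusted p under 0.05; fewer samples entered each such fit. The replicate numbers did not pair the libraries, since the deviations of same-numbered libraries correlated at -0.028, 0.062 and 0.004. With the replicate block 1 gene, 0 members and 0 other mitotic genes were called, while 2779 genes and 15 members (all lower) had an unadjusted p under 0.05. For member rows the count went from 0 to 1 (KIF2A) with a pseudocount of 0.1 or 0.01, and from 0 to 1 (FOXM1) without a library. The log2 fold changes of the 4 called members moved by less than 1.5 times under every alternative, while those of 24 of the 40 others moved by more, or changed sign, without a library and those of 15 did so under another setting. Of the 44 members 34 kept their sign under all alternatives. TOP2A turned to -0.0065 with centring and to -0.065 with the length and GC trend taken off. Without a library the log2 fold change ranged from -0.026 to 0.071 for TOP2A, -0.12 to 0.42 for MKI67, -0.049 to 0.14 for KIF18A, -0.0083 to 0.15 for TTK, -0.0074 to 0.092 for KIF4A, -0.040 to 0.11 for DLGAP5, -0.12 to 0.0015 for CDC25A, -0.23 to 0.0036 for ECT2, -0.15 to 0.0077 for NEK2 and -0.11 to 0.0023 for ANLN. The cause of these shifts was not tested.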
